A study of Mus musculus with 6 samples.

Results

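The lower segment of glycolysis turns fructose bisphosphate into phosphoenolpyruvate and, through pyruvate kinase, into pyruvate, and lactate dehydrogenase and a membrane carrier then dispose of the pyruvate as lactate. The genes described here were chosen by name as enzymes from aldolase to enolase, the side branch to 2,3-bisphosphoglycerate, lactate dehydrogenase and the lactate carrier, without pyruvate kinase: Aldoa, Tpi1, Gapdh, Pgk1, Pgam1, Eno1, Bpgm, Ldha, Ldhb and Slc16a1. All 10 were present among the 48709 genes of the count table. The mouse line used, G1E-ER4, stands for immature erythroblasts, and its GATA-1 is held inactive by the attached estrogen receptor domain until a ligand is added. Every library came from this 1 line, and all the cells received tamoxifen, which sends the fusion protein to the nucleus and starts erythroid differentiation. The groups differed in the peptide given before tamoxifen. The CHD4-APR peptide corresponds to the aggregation-prone region near the C-terminus of CHD4, a chromatin remodeler of the NuRD and ChAHP complexes, joined to the cell-penetrating Tat sequence, and the CTRL peptide is a run of alanines joined to Tat. Each peptide was used at 10 μM for 2 h, after which tamoxifen was present for 28 h. The sources give 100 nM in one place and 100 μM in another for tamoxifen. There were 3 CTRL and 3 CHD4-APR libraries of polyadenylated RNA, and nothing said whether the replicates were separate cultures, so the tests measure the spread between these libraries, which may be technical.

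In most tissues these enzymes keep ATP production going without oxygen and return NADH to NAD+ through the reduction of pyruvate. Red blood cells lose their mitochondria as they mature and afterwards depend on glycolysis for ATP. They also divert an intermediate of this segment into 2,3-bisphosphoglycerate, the metabolite that lowers the oxygen affinity of hemoglobin, through the enzyme encoded by Bpgm.

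The libraries held between 41687482 and 49784177 counted reads in the CTRL group and between 41945739 and 46888804 in the CHD4-APR group. All 12 erythroid markers examined were detected and tested, and 3 were lower and 3 higher at a false discovery rate (FDR) under 0.05, against 17.8% and 20.4% of all genes tested, with a median log2 fold change of 0.02. Their summed level was 40046 to 41948 normalized CPM (the counts of a gene relative to the library total, scaled between libraries) with CTRL and 35878 to 37649 with CHD4-APR. The lower sum came from the 2 hemoglobin genes Hba-a1 and Hbb-bt, at 26554 to 28952 CPM with CTRL and 22077 to 23567 CPM with CHD4-APR. The other 10 markers summed to 12996 to 13514 CPM with CTRL and to a higher 13802 to 14082 CPM with CHD4-APR. They include Gata1, which was higher, at 1609 ± 91.9 CPM with CTRL and 1860 ± 35.4 CPM with CHD4-APR (SD, n = 3, FDR 0.00214). The counts of Gata1 may include the ectopic GATA-1 fusion that this line expresses. Of 12 markers of other blood cells, 4 had enough counts to be tested and 0 had an FDR under 0.05 by edgeR, DESeq2 or limma-voom, nor an unadjusted p under 0.05. Their summed level was 38.6 to 42.5 CPM with CTRL and 36.2 to 39.8 CPM with CHD4-APR, most of it Itga2b, and Cd3e, Ly6g, Mpo, Ppbp and Ncr1 were at 0 in every library. The part that these marker levels had in the results below was not tested.

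With the CHD4-APR peptide, the mRNAs of 7 enzymes of this segment were lower and that of the lactate carrier was higher. Of the 9 genes with enough counts to be tested, Aldoa, Tpi1, Gapdh, Pgk1, Pgam1, Eno1 and Ldha fell at an FDR under 0.05. That is 7 genes, where 17.8% of all 12722 genes tested were called lower and 38.3% were called in either direction. Slc16a1 rose, where 20.4% of all genes tested were called higher, and Bpgm did not pass. Ldhb had no counts and was not tested. The median log2 fold change of the 9 genes was -0.40, against -0.01 over all genes tested, and the groups did not overlap for 8 of the 9, against 49.9% of all genes. Together these genes took 0.417% to 0.448% of the counts with CTRL and 0.326% to 0.353% with CHD4-APR. In such bulk samples, less of an mRNA per cell and fewer cells that make it cannot be told apart.

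**Figure D1:**
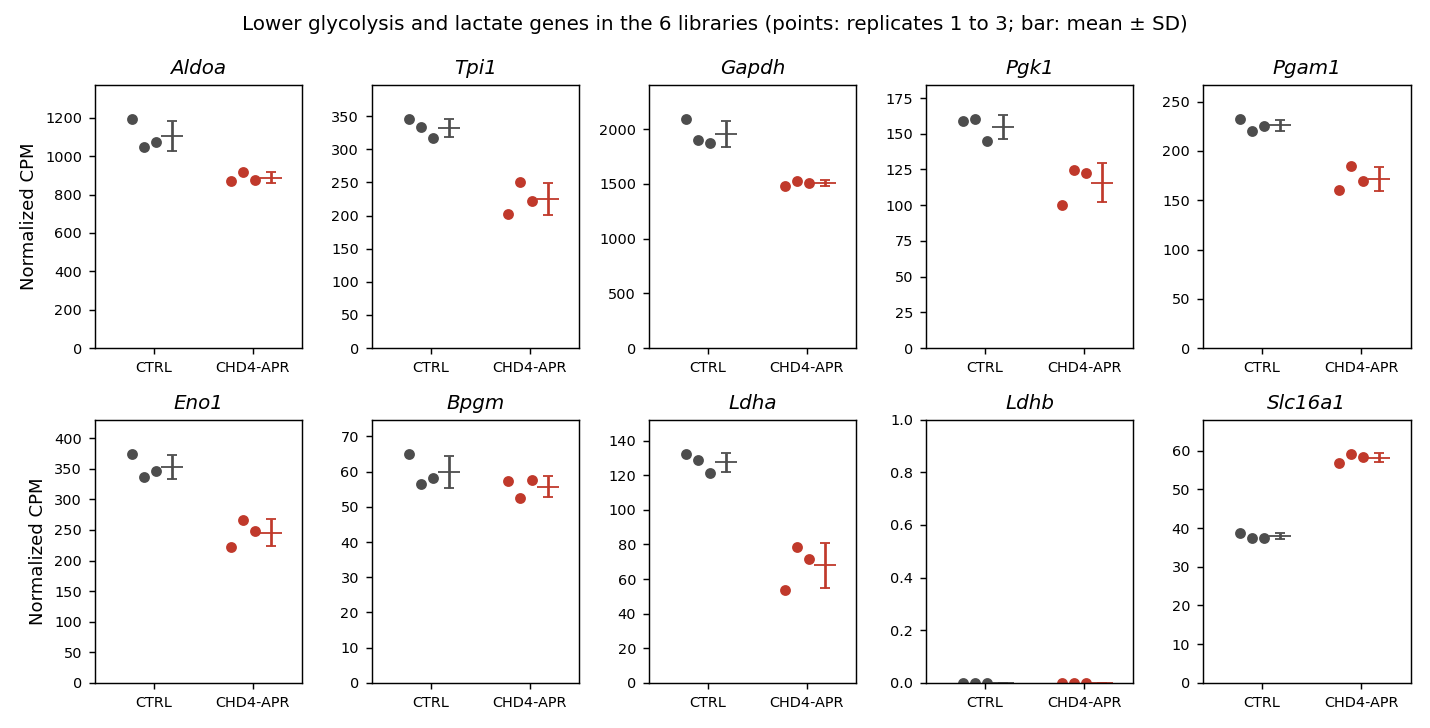
Normalized CPM of the 10 genes in each of the 6 libraries (y axis, from 0, its own scale in each panel), with points for replicates 1 to 3 and a bar for the mean ± SD of 3 libraries. In 7 panels all CHD4-APR points lie below all CTRL points, in the Slc16a1 panel they lie above, the Bpgm points overlap, and Ldhb is at 0 throughout.

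Aldoa encodes the aldolase that splits fructose 1,6-bisphosphate into a pair of triose phosphates. It lies on chromosome 7 from 126795234 to 126800751, on the minus strand of GRCm38, the build used for all positions here. Its level, in CPM scaled between libraries, was 1192, 1048 and 1075 with CTRL and 868, 919 and 876 with CHD4-APR. CTRL replicate 1 was the highest, and every CHD4-APR library was below every CTRL library. The mean fell from 1105 ± 76.5 to 888 ± 27.6 (SD, n = 3), a log2 fold change of -0.32 with a standard error (SE) of 0.050 and an FDR of 1.41e-04 in edgeR's quasi-likelihood test, which is used below wherever no other test is named.

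Tpi1 encodes triose phosphate isomerase, which interconverts the triose phosphates so that both can be used. It lies on chromosome 6 from 124810586 to 124814296. The CTRL libraries had 345, 333 and 318 CPM and the CHD4-APR libraries had 203, 250 and 222 CPM. The lowest value was again that of CHD4-APR replicate 1. The mean fell from 332 ± 13.9 to 225 ± 23.7 CPM (SD, n = 3), with a log2 fold change of -0.56 (SE 0.061, FDR 4.69e-06), the second largest fall among the 9 genes.

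Gapdh encodes glyceraldehyde-3-phosphate dehydrogenase, the step at which NAD+ is reduced. It is often used as a reference gene for the normalization of expression data. The gene lies on chromosome 6 as well, from 125161715 to 125166467. Its level was 2089, 1904 and 1871 CPM with CTRL and 1476, 1528 and 1508 CPM with CHD4-APR. The CHD4-APR libraries were close to each other and lay below the lowest CTRL library. The mean changed from 1955 ± 117 to 1504 ± 26.5 CPM (SD, n = 3), which is a log2 fold change of -0.38 (SE 0.047, FDR 1.66e-05). In these libraries Gapdh fell by 23.1% relative to the scaling by all genes.

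Pgk1 encodes phosphoglycerate kinase, the first ATP-producing step of glycolysis. Its position is on chromosome X from 106187100 to 106203699. It measured 159, 160 and 145 CPM with CTRL and 100, 124 and 123 CPM with CHD4-APR. CHD4-APR replicate 1 stood below the other two of its group, and the groups did not overlap. The log2 fold change was -0.42 (SE 0.068, FDR 1.76e-04), between means of 155 ± 8.36 and 116 ± 13.5 CPM (SD, n = 3).

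Pgam1 encodes phosphoglycerate mutase, which moves the phosphate of 3-phosphoglycerate. It lies on chromosome 19 from 41911923 to 41918660. Values were 232, 220 and 225 CPM with CTRL and 160, 185 and 169 CPM with CHD4-APR. The CTRL libraries were tightly grouped above all CHD4-APR libraries. The log2 fold change was -0.40 (SE 0.051, FDR 2.14e-05), between means of 226 ± 5.88 and 172 ± 12.5 CPM (SD, n = 3).

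Eno1 encodes enolase, which makes phosphoenolpyruvate, and lies on chromosome 4 from 150236721 to 150248879. The CTRL values were 374, 337 and 346 CPM and the CHD4-APR values were 222, 266 and 249 CPM. The groups did not overlap, with CTRL replicate 1 highest and CHD4-APR replicate 1 lowest. The mean fell from 352 ± 19.4 to 246 ± 22.1 CPM (SD, n = 3), a log2 fold change of -0.52 (SE 0.059, FDR 6.77e-06).

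Bpgm encodes bisphosphoglycerate mutase, the enzyme of the red cell branch to 2,3-bisphosphoglycerate, and lies on chromosome 6 from 34476207 to 34505613. Its levels were 65.0, 56.4 and 58.1 CPM with CTRL and 57.4, 52.4 and 57.5 CPM with CHD4-APR. Here the groups overlapped, since CHD4-APR replicates 1 and 3 were above CTRL replicate 2. The log2 fold change was -0.10 (SE 0.060, FDR 0.200), which is within the spread between replicates. With 1 library left out it ranged from -0.14 to -0.04, and it was closest to 0 on leaving out CTRL replicate 1, followed by CHD4-APR replicate 2 at -0.06. The FDR stayed between 0.0811 and 0.628 under the 19 other settings tried.

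Ldha encodes the A subunit of lactate dehydrogenase, which reduces pyruvate to lactate, and lies on chromosome 7 from 46841475 to 46855627. It had 132, 129 and 121 CPM with CTRL against 53.5, 78.7 and 71.4 CPM with CHD4-APR. The CHD4-APR libraries differed more from one another than for any other gene of the 9 relative to their mean, with replicate 1 lowest, yet the highest of them was far below the lowest CTRL library. The mean went from 127 ± 5.65 to 67.9 ± 12.9 CPM (SD, n = 3), so that Ldha fell by 46.7%, with a log2 fold change of -0.91 (SE 0.093, FDR 2.80e-06). Of all genes tested, 0.456% had a lower log2 fold change. Without CHD4-APR replicate 1 the value was -0.76, and without CHD4-APR replicate 2 it was -1.02.

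Ldhb encodes the B subunit, which predominates in tissues that oxidize lactate. The gene, on chromosome 6 from 142490249 to 142507957, had 0 counts in each of the 6 libraries. With a limit of 3 counts for a count of 0, this allows at most 0.0608 to 0.0725 CPM per library, counting error alone considered. Per exonic length, Ldha made up 100% of the lactate dehydrogenase A and B counts in every library, and the same limit allows Ldhb at most 0.0993% to 0.264%. The exact permutation test of this share between the groups is void, since no library differs. Ldhb shared its count of 0 with 38.9% of the 21695 genes annotated as protein-coding. Its neighbours Gys2 and Kcnj8 were also at 0, while Golt1b and Cmas a little farther away had 5469 and 84112 counts in all. A count of 0 need not mean that a gene is silent, since Mrpl53, a gene of the mitochondrial ribosome chosen here after its value was seen, was listed at 0 as well. The testis subunit gene Ldhc was likewise at 0.

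Slc16a1 encodes the monocarboxylate transporter MCT1, which carries lactate together with a proton across the plasma membrane. It lies on chromosome 3 from 104638668 to 104658462. Its values were 38.8, 37.5 and 37.5 CPM with CTRL and 56.9, 59.1 and 58.4 CPM with CHD4-APR. The replicates of each group lay within a narrow band and the bands were far apart. The mean rose 1.53-fold, from 37.9 ± 0.722 to 58.2 ± 1.13 CPM (SD, n = 3), with a log2 fold change of 0.62 (SE 0.050, FDR 6.60e-07). Bsg, the basigin chaperone that MCT1 needs to reach the membrane, fell from 458 ± 13.1 to 397 ± 8.68 CPM (log2 fold change -0.21, SE 0.042, FDR 0.00105), and Emb, the alternative chaperone embigin, was at 0.

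The libraries kept much the same order across these genes. CHD4-APR replicate 1 was the lowest library for all 7 genes that fell, and CTRL replicate 1 was the highest for 6 of them, Pgk1 being the exception. The median deviation of the 9 genes from their own mean over the libraries was -0.30 on the log2 scale in CHD4-APR replicate 1, against -0.13 and -0.18 in CHD4-APR replicates 2 and 3. Leaving out any 1 of the 6 libraries left 7 genes lower and 1 higher, with the median log2 fold change between -0.45 and -0.35.

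**Figure D2:**
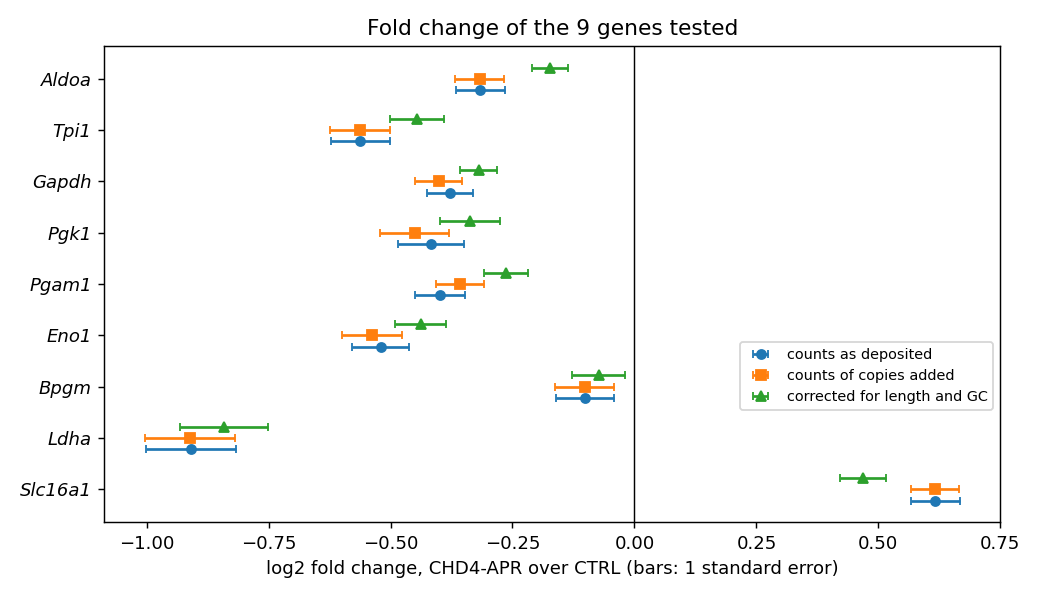
Log2 fold change, CHD4-APR over CTRL (x axis), of the 9 genes tested, with bars of 1 SE, from the deposited counts, with the counts of near-copies added to each gene, and after correcting for the length and GC content of transcripts. Ldha is farthest to the left at -0.91 in the deposited counts and Slc16a1 alone is to the right of 0 in all 3 versions.

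The size of the falls differed between the genes. Aldoa, Gapdh, Pgam1 and Pgk1 had log2 fold changes between -0.32 and -0.42, Eno1 and Tpi1 were at -0.52 and -0.56, and Ldha stood apart from these. Differences between the genes were not tested. The changes were smaller after a correction for length and GC content: Aldoa moved from -0.32 to -0.17 (SE 0.037, FDR 0.00240) and Pgam1 from -0.40 to -0.26 (SE 0.045, FDR 4.53e-04), each a change of more than 1.5 times. The rise of Slc16a1 shrank as well, from 0.62 to 0.47 (SE 0.048, FDR 1.06e-05), and Ldha moved from -0.91 to -0.84, and no call was lost.

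Levels can be compared between genes only per length. As RPKM, the normalized CPM divided by the length of the union of a gene's exons in kilobases, the CTRL means were 473 ± 28.4 for Gapdh, 380 ± 26.3 for Aldoa, 121 ± 5.04 for Tpi1, 114 ± 2.97 for Pgam1, 68.9 ± 3.73 for Pgk1, 65.5 ± 3.61 for Eno1, 38.5 ± 1.71 for Ldha, 16.7 ± 1.26 for Bpgm and 8.57 ± 0.163 for Slc16a1 (SD, n = 3). The CTRL ranges of Tpi1 and Pgam1 overlapped, and so did those of Pgk1 and Eno1. All other neighbours in this order were separated in the CTRL libraries. With CHD4-APR, Pgam1 was at 86.5 ± 6.33 RPKM and Tpi1 at 81.7 ± 8.60 RPKM (SD, n = 3), again overlapping. Ldha came down to 20.5 ± 3.91 RPKM, next to Bpgm at 15.5 ± 0.810 RPKM, and Slc16a1 went up to 13.1 ± 0.256 RPKM (SD, n = 3). The length used matters for the levels and not for the fold changes: over the longest CCDS transcript, a curated coding model, the CTRL mean was 1377 ± 82.6 RPKM for Gapdh and 174 ± 9.58 RPKM for Eno1 (SD, n = 3), which put Eno1 above Pgam1 and Pgk1. This second length was chosen after the data were seen. The levels of Gapdh, Eno1, Pgk1 and Pgam1 also depend on how reads shared with near-copies were counted, which is not given.

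**Figure D3:**
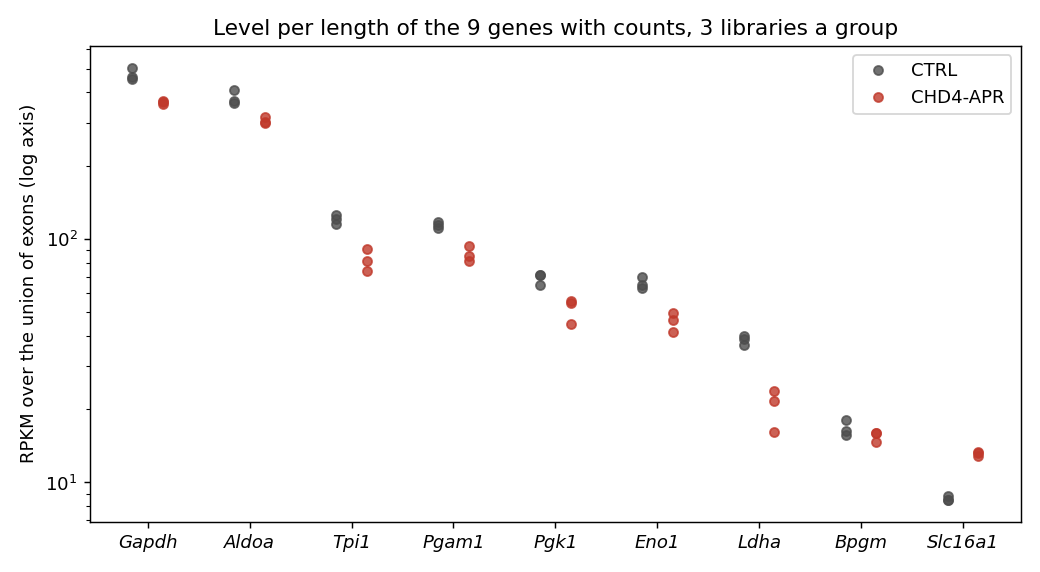
RPKM over the union of exons (y axis, log scale) of the 9 genes with counts, ordered by their CTRL mean, with 1 point per library. Gapdh and Aldoa are highest, from 298 to 505 RPKM over all 6 libraries, and Slc16a1 is lowest in both groups, at means of 8.57 RPKM with CTRL and 13.1 RPKM with CHD4-APR.

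Several of these genes have processed pseudogenes and retrogenes with almost the same sequence, and how the counting treated reads that match several genes is not given in the sources used here. The share of 100-base windows of the longest CCDS transcript that occur letter for letter in the transcript of another gene was 78.0% for Gapdh, 67.0% for Pgk1, 59.0% for Eno1 and 39.7% for Pgam1. It was 8.80% for Ldhb, 1.28% for Ldha and 0.796% for Tpi1, and 0 for Aldoa, Bpgm and Slc16a1. In windows of 50 bases it was 27.0% for Ldhb, 16.6% for Ldha, 13.5% for Aldoa and 7.51% for Tpi1, and 0 for Bpgm and Slc16a1. Stretches of the coding sequence beside the copy with the most counts show the contrast. The first stretch of each pair below is the gene and the second the copy, in which capitals mark bases that differ. They lie at chr6:125162981-125163040 (minus) for Gapdh and chr11:20335633-20335692 (minus) for its copy Gm12033, at chrX:106194660-106194719 (plus) for Pgk1 and chr12:10899882-10899941 (minus) for Pgk1-rs7, and at chr7:126797463-126797522 (minus) for Aldoa and chr4:72852207-72852266 (minus) for Aldoart1, all in exons.
Gapdh: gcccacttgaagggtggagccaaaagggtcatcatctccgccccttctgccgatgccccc
Gm12033: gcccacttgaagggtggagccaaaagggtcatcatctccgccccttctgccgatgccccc
Pgk1: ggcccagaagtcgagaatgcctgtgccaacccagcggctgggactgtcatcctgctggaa
Pgk1-rs7: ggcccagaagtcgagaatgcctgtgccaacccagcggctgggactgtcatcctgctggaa
Aldoa: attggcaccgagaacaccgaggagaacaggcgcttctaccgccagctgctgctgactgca
Aldoart1: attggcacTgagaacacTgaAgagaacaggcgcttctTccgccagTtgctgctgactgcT
Over these 60 bases the copies of Gapdh and Pgk1 differed at 0 positions and the copy of Aldoa at 6.

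The deposited counts hold a row for each copy. Annotated copies numbered 247 for Gapdh, of which 119 had counts, and they held 35.3% of the counts of the gene and its copies together. The share was 30.3% for Eno1 with 4 copies, 23.5% for Pgk1 with 3 and 20.0% for Pgam1 with 3. Ldha had 15 copies with 0.149% of the counts, and Aldoa had 7 with 0.00451%. The single copies of Tpi1 and Ldhb had 0 counts, and Bpgm and Slc16a1 had no copy by this definition. For Ldha, Tpi1 and Aldoa, which fell, and Slc16a1, which rose, hardly any counts were assigned to near-copies.

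Of 39 copies with enough counts to be tested, 16 were lower and 0 were higher at an FDR under 0.05 by edgeR, as by DESeq2 and limma-voom, and 0 were higher at an unadjusted p under 0.05, with a median log2 fold change of -0.36. Of all genes tested, 17.8% were lower and 20.4% higher. Copies of the same gene are alike in sequence and may hold the same reads, so their calls cannot be counted as separate results. For Gapdh, 11 of 34 copies were lower. The copies of Gapdh with the most counts were Gm12033 at -0.51, Gm13394 at -0.51 and Gm5559 at -0.53 on the log2 scale, each with 45624 counts or more in all. Another 3 copies of Gapdh, chosen after their values were seen, had nearly the same count as one another in every library: CTRL replicate 1 had 3484 for Gm7336, 3468 for Gm12671 and 3459 for Gm10359, and CHD4-APR replicate 1 had 2738, 2748 and 2746. Whether the same reads were counted at several of these genes was not tested. For Eno1 the copies were Eno1b, annotated as protein-coding, with a log2 fold change of -0.60 (SE 0.071, FDR 9.92e-06), and Gm4735 with -0.52 (SE 0.072, FDR 4.73e-05). Pgk1-rs7 was at -0.64 (SE 0.090, FDR 4.96e-05) and Gm5537 at -0.36 (SE 0.105, FDR 0.0121). Pgam1-ps2 was at -0.19 (SE 0.057, FDR 0.0156). With all copies added to their gene, the log2 fold changes were -0.40 for Gapdh, -0.45 for Pgk1, -0.36 for Pgam1 and -0.54 for Eno1. Every call was the same. Reads that stood in several rows would be counted more than once in these sums. The sums therefore cannot show what shared reads do to the calls.

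**Figure D4:**
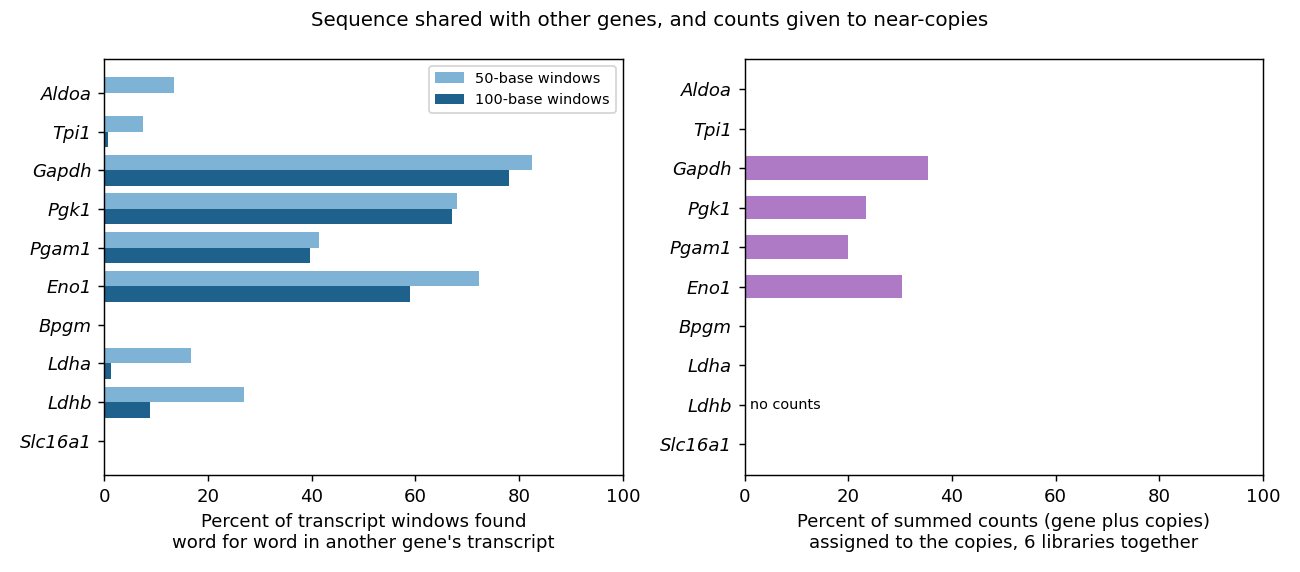
Left, percent of all 50-base and 100-base windows of each gene's longest CCDS transcript that also occur in another gene's transcript. Right, percent of the summed counts of gene and near-copies, over the 6 libraries, that were assigned to the copies, which is 35.3% for Gapdh, 30.3% for Eno1, 23.5% for Pgk1, 20.0% for Pgam1 and under 0.2% for the other genes with counts. Ldhb and its copy had no counts, so it has no share.

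Overlap with genes on the opposite strand was small. Exons of Aldoa shared 25 bases with Fam57b, those of Tpi1 34 with Spsb2 and those of Gapdh 68 with Iffo1. The library kit named in the sources does not mark strand, so reads there cannot be told apart. All counts of these partners over the 6 libraries were 5715, 6381 and 10606, beside 266198, 74493 and 462495 for Aldoa, Tpi1 and Gapdh. Reads within the shared bases were not counted apart, and their part in the results was not tested.

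The promoters are shown for Ldha and Slc16a1, which moved in opposite directions, and for Pgk1, a classical target of the hypoxia-inducible factors. These factors bind a short core, ACGTG or GCGTG, on either strand, and Ldha is also a known target of MYC, which binds the E-box CACGTG, a sequence that contains the core. The 250 bases before a RefSeq start of each gene in GRCm38.p6 are printed on the gene's strand, with the core in capitals, for Ldha at chr7:46845554-46845803, for Slc16a1 at chr3:104638414-104638663 and for Pgk1 at chrX:106186850-106187099, all on the plus strand.
Ldha: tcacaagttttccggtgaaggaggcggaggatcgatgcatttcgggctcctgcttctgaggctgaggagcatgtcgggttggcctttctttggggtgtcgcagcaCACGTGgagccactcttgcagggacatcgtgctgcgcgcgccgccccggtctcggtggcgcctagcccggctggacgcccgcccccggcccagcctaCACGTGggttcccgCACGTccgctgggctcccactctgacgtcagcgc
Slc16a1: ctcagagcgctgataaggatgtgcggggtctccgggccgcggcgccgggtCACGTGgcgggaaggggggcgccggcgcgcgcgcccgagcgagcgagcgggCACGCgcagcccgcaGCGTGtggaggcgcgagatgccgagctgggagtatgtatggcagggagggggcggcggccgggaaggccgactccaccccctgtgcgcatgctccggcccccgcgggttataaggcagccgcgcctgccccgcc
Pgk1: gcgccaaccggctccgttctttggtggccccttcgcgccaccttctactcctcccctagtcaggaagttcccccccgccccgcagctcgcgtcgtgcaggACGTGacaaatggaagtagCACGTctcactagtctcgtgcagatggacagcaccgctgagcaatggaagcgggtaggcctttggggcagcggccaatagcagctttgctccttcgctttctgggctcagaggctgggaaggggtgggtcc
Overlapping matches counted as 1 place, the printed Ldha promoter held the core at 3 places, of which 2 are the E-box, and that of the second Ldha start, at chr7:46846832-46847081, held it at 1 place with no E-box. Slc16a1 also held it at 3 places, of which 1 is the E-box, and Pgk1 at 2 with no E-box. Of the 15 RefSeq promoters of the 10 genes, 12 held the core, against 38.6% of all 32851 promoters, and 2 held the E-box, against 6.02%. The promoters of Tpi1, which fell, and of Bpgm, which did not pass, held no core. A GATA motif (GATAA on either strand) stood in 2 of the 15, against 22.6%, and a CACCC box in 9, against 52.0%. The GC content of the 3 printed promoters was 67.2%, 76.4% and 62.8%, above the median of 52.4% over all promoters, and these shares take no account of it, nor of the bases that nearby starts of Aldoa and of Eno1 share. The core was present both in genes that fell and in the one that rose.

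The genes around this segment were read from lists of pathway members. Among 9 tested genes of glucose entry and upper glycolysis, 5 were lower and 1 was higher at an FDR under 0.05, with a median log2 fold change of -0.24. Over all genes tested, 17.8% were lower and 20.4% higher. Pfkl, the liver-type phosphofructokinase, fell by 0.30 on the log2 scale (SE 0.052, FDR 2.80e-04), Gpi1, glucose phosphate isomerase, was lower at -0.27 (SE 0.046, FDR 2.51e-04), and Slc2a3, the glucose transporter GLUT3, was higher at 0.44 (SE 0.041, FDR 1.35e-06). Of the pyruvate kinases, Pkm was lower at -0.21 (SE 0.043, FDR 0.00131), whereas Pklr, the red cell and liver gene, was at 0.06 (SE 0.059, FDR 0.498). Of 4 genes tested that set fructose 2,6-bisphosphate, an activator of phosphofructokinase, 0 were lower at an FDR or an unadjusted p under 0.05 by edgeR, DESeq2 or limma-voom, and Pfkfb2 was higher at 0.41 (SE 0.067, FDR 2.06e-04). Minpp1, which removes a phosphate from 2,3-bisphosphoglycerate, was at 0.12 (SE 0.051, FDR 0.0721).

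Paralogs of the 10 genes were few. Of 14 listed, 6 were tested, and besides Eno1b the genes Aldoc, at -0.26 (SE 0.075, FDR 0.0122), and Eno3, at -0.21 (SE 0.069, FDR 0.0270), were lower (3 of 6, against 17.8% of all genes tested), while 0 were higher at an FDR or an unadjusted p under 0.05 by any of the 3 tools. Slc16a3, the carrier MCT4 that exports lactate from glycolytic cells, had 3.32 ± 0.158 CPM with CTRL and 2.86 ± 0.447 CPM with CHD4-APR (SD, n = 3), and its log2 fold change of -0.22 had an FDR of 0.247. Slc16a7, the carrier MCT2, was at 0.

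The genes that take pyruvate and NADH into mitochondria moved in mixed directions. Of 13 tested genes of pyruvate dehydrogenase and its control, 2 were lower and 6 higher, against 17.8% and 20.4% of all genes tested, with a median of 0.15. Among those with an FDR under 0.05, the largest changes were those of Pdpr, the regulatory subunit of the activating phosphatase, at 0.89 (SE 0.106, FDR 1.05e-05), of the catalytic subunit Pdp2, at 0.33 (SE 0.069, FDR 0.00143), and of the inhibiting kinase Pdk2, at -0.27 (SE 0.058, FDR 0.00164). Pdp1, the other catalytic subunit, was at 0.98 and did not pass (SE 0.414, FDR 0.0723), from a level of 0.211 ± 0.00757 CPM with CTRL (SD, n = 3). Among 9 tested genes of the NADH shuttles, 2 were lower and 3 higher, with a median of 0.01 and the same shares of all genes to compare. Slc25a13, an aspartate-glutamate carrier, was higher at 0.48 (SE 0.128, FDR 0.00725), as were Gpd1l, a relative of cytosolic glycerol-3-phosphate dehydrogenase, at 0.39 (SE 0.122, FDR 0.0180), and the mitochondrial Gpd2 at 0.34 (SE 0.090, FDR 0.00742). Mdh2, at -0.20 (SE 0.044, FDR 0.00163), and Mdh1, at -0.15 (SE 0.045, FDR 0.0145), were lower. The 10 shuttle genes listed summed to 774 to 813 CPM with CTRL and 725 to 740 CPM with CHD4-APR. Lists of genes were described by these counts and medians, and none was tested as a set.

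**Figure D5:**
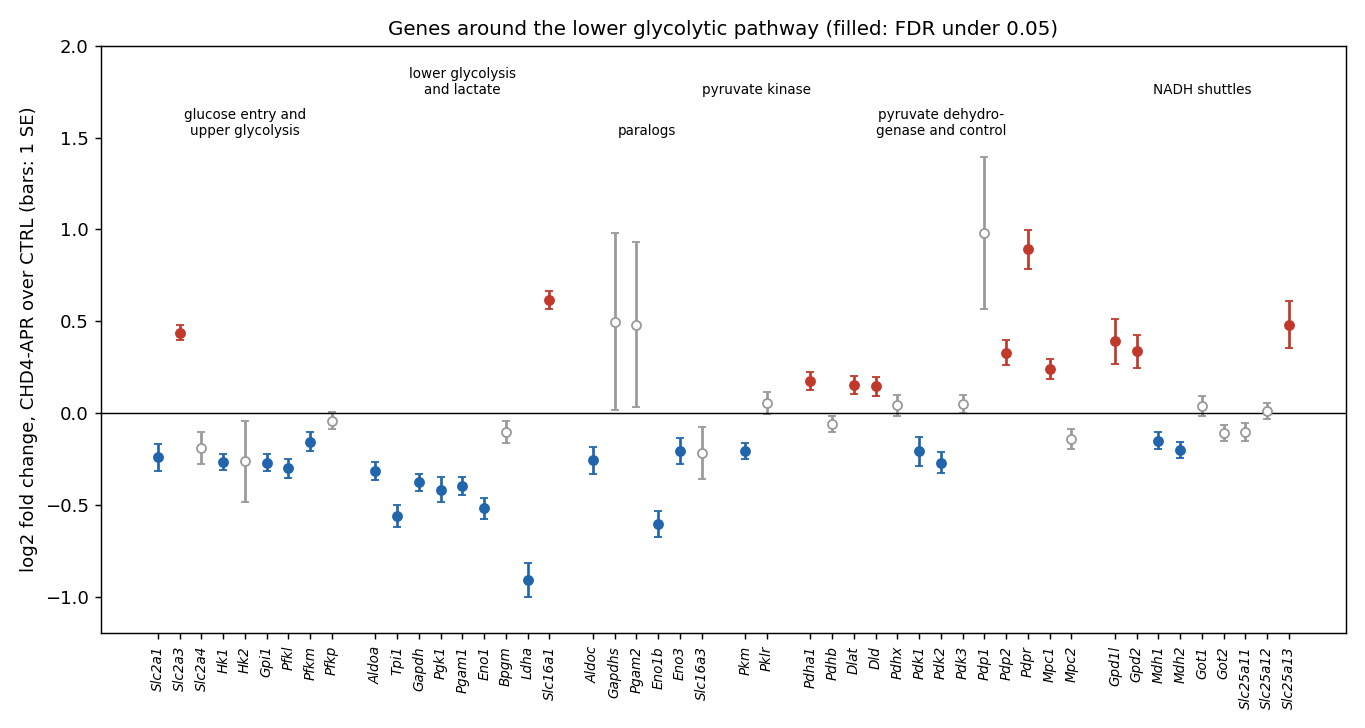
Log2 fold change, CHD4-APR over CTRL (y axis, bars of 1 SE), of the tested genes of glycolysis, lactate handling and mitochondrial entry, grouped by list (x axis); filled points have an FDR under 0.05, blue lower and red higher, and open points do not. The lower glycolysis and lactate group holds 7 blue points, 1 red point for Slc16a1 and 1 open point for Bpgm.

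Across the 6 libraries, which fall into the 2 groups, the log2 CPM of Ldha ran most closely with Mrps14, Pfkl, Fam162a, Eif2b2 and Cep89 among the 7795 genes that averaged 10 CPM or more outside the 10 genes and their copies. The Pearson correlations were 0.997, 0.997, 0.997, 0.995 and 0.995, given as descriptions over both groups together. Fam162a, a mitochondrial protein gene known for its response to hypoxia, had 58.9, 58.5 and 57.1 CPM with CTRL and 35.3, 42.3 and 41.7 CPM with CHD4-APR, with replicate 1 again lowest. Its log2 fold change was -0.55 (SE 0.063, FDR 8.21e-06). Within the 10 genes, the same measure against Ldha was 0.992 for Tpi1, 0.987 for Eno1, 0.985 for Pgam1 and for Pgk1, 0.946 for Gapdh, 0.927 for Aldoa, 0.436 for Bpgm and -0.915 for Slc16a1.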

How the data were processed

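Polyadenylated RNA of 6 G1E-ER4 libraries was sequenced. After adaptor trimming with Cutadapt and alignment to GRCm38 with STAR 2.7.10a, the authors deposited raw counts per Ensembl gene from featureCounts, not normalized. Strand and multi-mapping settings are not given in the sources used here. The table has 2 further columns of per-library values that match no sample, which were not used. Depths stand in the text, and limits for a count of 0 cover counting error alone.

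Genes were named with GENCODE M21 on GRCm38, which held 48349 of 48709 identifiers. Counts passing filterByExpr were scaled by TMM and compared with edgeR 4.0.16 (glmQLFTest, Benjamini-Hochberg adjustment over all genes tested, FDR threshold 0.05, no replicate block), and the study itself used DESeq2. CPM were scaled by TMM, and log2 CPM used a prior count of 2. Copies were genes whose transcript matched a gene's longest CCDS transcript by BLAST 2.17.0 at 85% identity or more in alignments of at least 100 bases covering at least 30% of it. Promoters came from RefSeq, and all 10 genes had one.

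The 10 genes were all named. From each pathway list, at most the 3 largest changes with an FDR under 0.05 were named, plus single values beside them, along with the 3 copies with most counts and the 5 genes most like Ldha. The genes and lists were chosen with earlier results of these data known. Alternatives were DESeq2 1.42.0, limma-voom 3.58.1, other scalings and filters, hemoglobin genes removed, protein-coding genes alone, a replicate block, a length and GC correction, copies added and each library left out. Procedures were tested on simulated counts. Any 2 replicates differed beyond counting noise.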

Additional observations from a re-analysis of the deposited data

How the results depend on the processing

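Under all 19 alternatives the same 7 genes were lower and Slc16a1 was higher at an FDR under 0.05, and Bpgm passed in none. The median log2 fold change of the 9 genes was -0.40, and it was -0.32 with the length and GC correction, both alone and together with the replicate block, a shift of about the spread between replicates, which the combined fit just passed. The number of all genes with an FDR under 0.05 was 4871, and ranged from 3374 with the length and GC correction to 5214 with the replicate block, and from 3703 to 4928 when 1 library was left out. The share of tested genes called lower was 17.8%. It was 10.6% with no filter on low counts and 21.9% with protein-coding genes alone. When 1 library was left out, it ranged from 11.8% to 17.9%. With no scaling factor beyond total counts, 1474 genes were lower and 2959 higher, against 2270 and 2601. The balance turned the other way with upper quartile scaling (2601 lower, 2419 higher) and with the length and GC correction, alone (1745 and 1629) and with the block (2108 and 1892). Replicate numbers showed no clear pairing of the libraries. The deviations of same-numbered libraries correlated at 0.07, 0.06 and -0.03. CTRL replicates 1 and 2 correlated best with their own number, and CTRL replicate 3 correlated better with another. With 3 libraries a group, these values cannot exclude a pairing. The replicate block gave 7 genes lower, 1 higher and a median of -0.40. The share of Ldha was 100% under each alternative, so its test says nothing. Levels per length of the 9 genes moved beyond 1 SD for 8 of them with the other transcript length. Depth is 1 limit for Ldhb, where 3 counts could not be seen as different from 0. Other reasons for its count of 0 were not tested.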
